A study of Mus musculus with 19 samples.

Results

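Regions of mouse pre-iPSC DNA that gained 5-hydroxymethylcytosine (5hmC) early and kept it were taken from the wild-type (WT) peak lists. Peaks of the 9 WT lists on chromosomes 1 to 19 were merged wherever they shared 1 bp, which gave 294585 merged regions. A merged region was chosen when all 3 day 2 (D2) lists and all 3 day 10 (D10) lists held a peak in it and none of the 3 day 0 (D0) lists did. This left 3879 regions, 1.32% of all merged regions, called early-kept regions here. Because WT peaks chose them, their WT pattern is a description and carries no test. The tests below rest on knockout libraries, on WT libraries left out of the choice, or on positions of summits, which the choice did not use.

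5hmC is the base that TET enzymes make when they oxidise 5-methylcytosine. It is an intermediate on a route by which methylation is removed, and it is also a lasting mark that is commonly found at active enhancers and in the bodies of transcribed genes. Ascorbic acid (vitamin C) is known to raise TET activity in cultured mouse cells, and together with 2i it is used to move stalled reprogramming intermediates, the pre-iPSCs, on towards pluripotency. 2i stands for CHIR-99021, which inhibits the kinase GSK3, and PD-0325901, which inhibits the kinase MEK.

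Knockout pre-iPSCs (KO) had 1 library of KO1 and 1 of KO2 on each of days 0, 2 and 10. Wild-type pre-iPSCs had replicates A, B and C on each of the same days. The mouse embryonic stem cell line V6.5 (mESC) was profiled once at 0 hours, once at 12 hours and once at 72 hours. An input library came from pre-iPSCs of day 0 with no treatment. All pre-iPSCs derived from mouse embryonic fibroblasts. The labels give ascorbic acid at 50 µg/mL with 2i for every library except the input, day 0 included, so the first time point is not labelled as untreated. The labels do not name the deleted gene, and they do not say whether KO1 and KO2 lack the same gene or whether each is 1 clone. The run names of their lists carry different stems. Whether replicates came from separate cultures is not stated in the labels. The p-values therefore reflect the spread between these libraries, and that spread may be technical. Cell identity was not checked against marker genes, because no gene annotation of mm9, the build of the files, was used here; for the same reason regions are given by position, without genes or sequence.

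Each of the 18 libraries with a list had between 23876 and 160426 peaks on chromosomes 1 to 19. Depth, read from the steps of the authors' fold values relative to the shared input, was 1.15 to 1.67 times the input in the 6 KO libraries and 1.03 to 1.64 times in the 8 WT libraries where it could be read. It could not be read in WT D0 C or in mESC, and absolute depth is unknown. The shortest pre-iPSC list was WT D10 C with 54997 peaks, and the longest was WT D2 A. KO1 stood apart on chromosome 5 and the mESC lists of 12 and 72 hours on chromosome 8, and the main shares are also given without those chromosomes. For mESC a label denies that peaks were called, yet their lists have the layout of the others and were used as deposited.

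The early-kept regions were long compared with other merged regions. Their median length was 663 bp, against 390 bp over all merged regions, and they covered 2.93 Mb. The 5th and the 95th percentile were 391 and 1412 bp, and 713 of them (18.4%) reached 1 kb. A further 3 sets of the same merged regions served for comparison. Regions with a peak in all D2 lists and in no D0 or D10 list (13606, D2-only regions) had a median of 445 bp. Regions with a peak in all D10 lists and in no D0 or D2 list (9642, D10-only regions) had a median of 471 bp. Regions with a peak in all 9 lists (3406, all-day regions) had a median of 1106 bp. A long region has more room for a peak of any list, so the main shares were also read in regions of 500 to 1000 bp. In that band KO1 had a peak in 4.29%, 88.5% and 58.9% of the early-kept regions at D0, D2 and D10, against 35.4%, 63.6% and 57.5% of all merged regions of the band. KO2 had one in 11.7%, 67.0% and 84.8% of them, against 39.2%, 49.4% and 46.2% of all.

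Early-kept regions lay on each of the 19 autosomes. They made up 0.951% of the merged regions of chromosome 1, which had the lowest share, and 1.70% of those of chromosome 17, which had the highest. Chromosome X, added for this count, held 2054 merged regions and 0 that met the rule, which allows a share of up to 0.146%. X held 49 D2-only and 41 D10-only regions, and 187 merged regions with a peak in all D2 lists against 57 with a peak in all D10 lists. Most early-kept regions stood alone. Of the windows of 10 kb that held a midpoint of one, 3298 held 1, 258 held 2, 19 held 3 and 2 held 4. Both windows with 4 were on chromosome 17 (mm9), at 6950001 to 6960000 and at 31980001 to 31990000.

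Peaks within the early-kept regions were stronger than the typical peak in most WT lists. The authors' fold enrichment at the summit, the ratio of 5hmC signal to background that MACS2 wrote for each peak, is the authors' own value and is read here against other peaks of the same list. Its median over the strongest peak of each region was 6.02, 5.39 and 4.63 in WT D2 A, B and C. The medians of these whole lists were 5.30, 5.19 and 4.69. In WT D10 A, B and C the median was 5.23, 4.78 and 5.01, against 4.58, 4.24 and 4.56 over the whole lists. WT D2 C was the exception, with 49.2% of the early-kept regions above the median of its list, against 56.6 to 73.6% in the other 5 lists. Such folds were not particular to these regions. Of all-day regions 93.0%, 90.4% and 88.0% were above it in WT D2 A, B and C. In WT D10 A, B and C they were 77.0%, 72.0% and 59.9%, against 73.6%, 71.5% and 61.4% of early-kept regions. The rule asks for a peak in each of these lists, so the folds describe the choice. Membership was often a matter of 1 list. Of regions that missed the rule by 1 D10 list there were 3404, of which 2244 lacked a peak in WT D10 C. Regions that missed it by 1 D2 list numbered 2529, of which 1704 lacked a peak in WT D2 C. Another 1726 regions had all 6 later peaks and a peak in 1 D0 list, most often WT D0 B with 973. Inside the rule, 96 regions had a weakest peak with a −log10 p under 5 and 1517 had a weakest peak with a −log10 p of at least 8.

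Knockout libraries, which took no part in the choice, were compared first. In both KO lines few early-kept regions had a peak at D0 and most had one at D2 and at D10. KO1 had a peak in 4.56% of the 3879 regions at D0, 88.4% at D2 and 59.1% at D10. KO2 had one in 11.8% at D0, 67.1% at D2 and 83.4% at D10. Over all 294585 merged regions the shares were 19.1%, 40.8% and 33.9% for KO1 and 23.5%, 30.5% and 29.8% for KO2 at the same days. The early-kept regions were therefore below this background at D0 and above it at D2 and D10 in both lines. All merged regions were shorter, however. At 500 to 1000 bp the KO1 D10 list held a peak in 58.9% of early-kept against 57.5% of all merged regions, a small gap. The KO2 D10 list held one in 84.8% against 46.2% there.

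**Figure D1:**
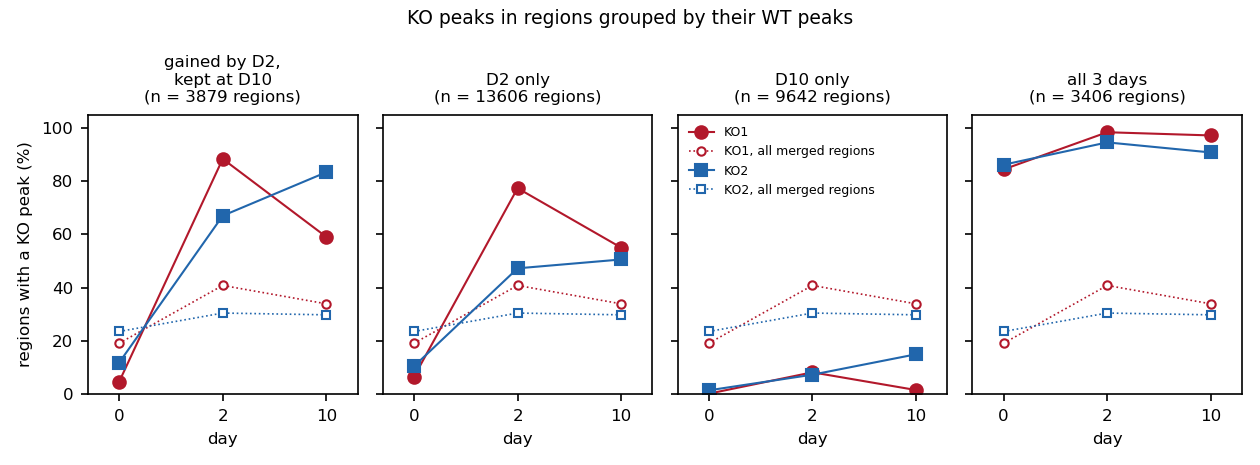
Percentage of regions with a KO peak (y axis) at days 0, 2 and 10 (x axis), for early-kept regions and the 3 comparison sets, with KO1 as circles and KO2 as squares, 1 library per point, and open symbols for all merged regions. In early-kept regions KO1 went through 4.56%, 88.4% and 59.1% and KO2 through 11.8%, 67.1% and 83.4%, while D10-only regions stayed at or under 15.0% in both lines.

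Averaged over the lines, the share of early-kept regions with a peak was 8.17% ± 5.10 in KO D0 lists, 77.7% ± 15.1 in KO D2 lists and 71.2% ± 17.2 in KO D10 lists (SD, n = 2 each). A two-sided exact permutation test over the 3 days gave p = 0.133 (n = 2 per day). Its 90 assignments allow no p below 0.0667, so it could not decide whether the days differed. Between pairs of days the KO share differed by 69.6 percentage points (D2 minus D0, exact permutation p = 0.333) and by 63.1 points (D10 minus D0, exact p = 0.333). No smaller p can arise from a pair of libraries on each side. The D0 and D2 libraries did not overlap, nor did the D0 and D10 libraries. From D2 to D10 the difference was -6.50 points (exact p = 0.667), and there the lines moved in opposite directions, by -29.4 points in KO1 and by 16.4 points in KO2.

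KO1 had more peaks on chromosome 5 than elsewhere. There it had a peak in 20.2%, 98.1% and 92.1% of the early-kept regions at D0, D2 and D10. On the other 18 chromosomes its highest share was 4.85% at D0, 93.9% at D2 and 62.5% at D10. Without chromosome 5 its shares were 3.41%, 87.7% and 56.6%, against 18.3%, 39.4% and 32.5% of all merged regions left. KO2 was within its range elsewhere on chromosome 5 at D2 and D10, with 62.9% and 79.8%. At D0 its 8.24% was just under the 8.56% of the lowest other chromosome.

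The 6 KO lists combined into a few frequent patterns. A peak in both KO D2 lists was found in 2377 early-kept regions (61.3%, against 22.4% of all merged regions), and a peak in either KO D0 list in 585 (15.1%, against 30.1%). A peak in both KO D2 lists and in no KO D0 list was found in 1897 early-kept regions (48.9%), against 9.24% of all merged regions. A peak in both D2 and both D10 lists and in no D0 list, the pattern of the WT rule repeated in KO, was the most frequent single pattern with 1241 regions (31.99%), against 4.4% of all merged regions. Only 40 regions (1.03%, against 5.1% of all merged regions) had a peak in all 6 KO lists, and 102 (2.63%, against 36.3%) had one in none of them. A peak in both KO D2 lists that was lost from both D10 lists was rare, with 57 regions (1.47%, against 1.34%), a share near the background. At D10 both KO lists held a peak in 2026 regions (52.2%, against 17%), the KO2 list alone in 1210 (31.2%, against 12.8%), the KO1 list alone in 265 (6.83%, against 17%) and neither list in 378 (9.74%, against 53.2%). Without chromosome 5, 3612 early-kept regions were left. Of these, 1138 (31.5%, against 4.43% of all merged regions left) had the pattern of the WT rule in KO. A peak in all 6 KO lists was found in 31 (0.858%, against 5.07%), and one in both KO D10 lists in 1827 (50.6%, against 16.9%). Low shares of KO D0 peaks were not particular to early-kept regions. With chromosome 5 included, 15.1% of D2-only regions had a peak in either KO D0 list and 0.933% in all 6 KO lists. The pattern of the WT rule in KO was found in 15.0% of D2-only regions. A peak in both KO D2 lists and in no KO D0 list was found in 30.4% of them.

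Regions with a peak in both KO D10 lists had higher WT folds than regions with no KO D10 peak in the same lists. The median fold in the WT D2 lists was 5.75 with a peak in both KO D10 lists and 4.86 with none. In the WT D10 lists it was 5.04 with a peak in both and 4.79 with none. Their median lengths were 703 and 573.5 bp. The KO1 D2 list held a peak in 96.9% of the first group and 65.9% of the second. The KO2 D2 list held one in 81.7% of the first group and 22.0% of the second.

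The strength of the KO peaks, set against that of their own lists, also differed between days. In the early-kept regions with a peak, the median fold in KO1 was 4.27 at D0 (177 regions), 5.54 at D2 (3430) and 4.82 at D10 (2291), against 5.11, 5.03 and 5.10 over its whole lists. In KO2 it was 5.05 at D0 (457 regions), 4.93 at D2 (2601) and 5.19 at D10 (3236), against 5.46, 4.76 and 4.57 over its whole lists. At D0 the peaks in these regions were thus weaker than the typical peak of the list in both lines. At D2 they were stronger in both. At D10 they were weaker in KO1 and stronger in KO2.

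**Figure D2:**
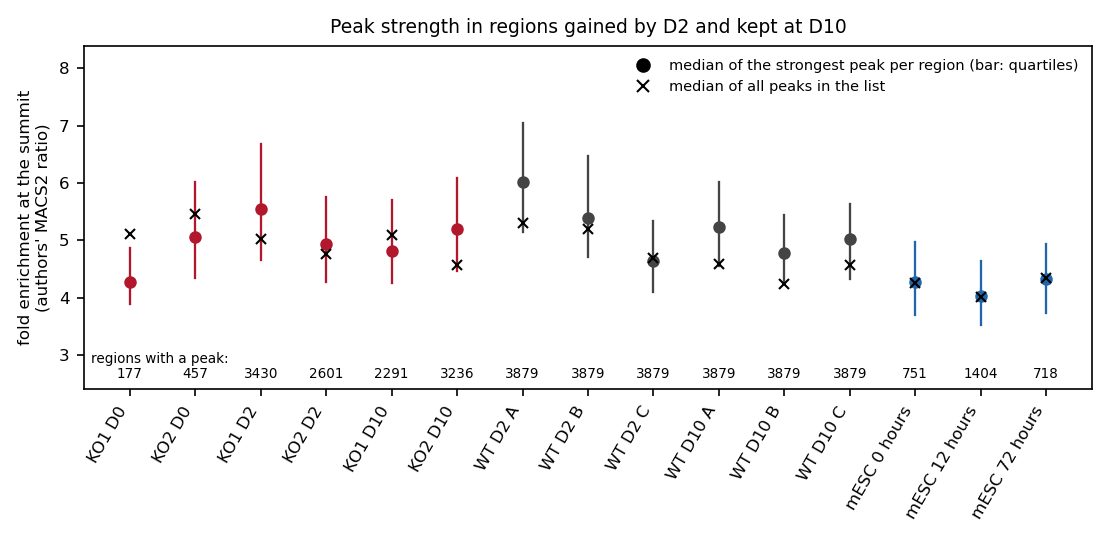
The authors' fold enrichment of the strongest peak in each early-kept region (y axis), by list (x axis), with KO lists first, then WT and mESC lists; dots are medians, bars run from the lower to the upper quartile, crosses are the medians of all peaks in the list, and the numbers count regions with a peak. KO D0 medians of 4.27 and 5.05 lie under the crosses at 5.11 and 5.46, and KO D2 medians of 5.54 and 4.93 lie above those at 5.03 and 4.76.

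The early-kept regions were next set against the other WT patterns in the same KO libraries. Per KO library, the share of early-kept regions with a peak minus that of D10-only regions was 4.42, 80.2 and 57.5 points in KO1 at D0, D2 and D10, and 10.4, 59.8 and 68.5 points in KO2. The mean difference was 46.8 points and was positive in 6 of 6 KO libraries (two-sided exact sign-flip permutation, p = 0.0313, adjusted p = 0.0469 over the 3 sets). D10-only regions had a KO peak in at most 15.0% in any library. Early-kept and D10-only regions were chosen to differ in WT D2 peaks, and this mean pools the KO D2 libraries with those of D0 and D10. Against all-day regions the mean difference was -39.6 points, negative in 6 of 6 libraries (exact permutation, adjusted p = 0.0469). Per library it was -79.9, -10.0 and -38.2 points in KO1 at D0, D2 and D10, and -74.4, -27.6 and -7.42 points in KO2. Early-kept and all-day regions were chosen to differ in WT D0 peaks, and the mean pools the days, so the D0 libraries weigh most in it. Against D2-only regions it was 11.2 points, positive in 5 of 6 libraries, and did not pass (exact permutation, adjusted p = 0.0938). Libraries of 1 line on 3 days entered these tests as separate units, and 0.0313 is the smallest p that 6 libraries allow.

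The comparison with D2-only regions depended on line and day. At D10 the KO1 list held a peak in 59.1% of early-kept and 55.0% of D2-only regions. The KO2 D10 list held one in 83.4% of early-kept and 50.6% of D2-only regions. The difference at D10 was 32.8 points in KO2 and 4.02 points in KO1. Among regions of 500 to 1000 bp (2282 early-kept, 4682 D2-only) the KO1 D10 list held a peak in 58.9% of early-kept and 63.7% of D2-only regions, the other way round. In KO2 the shares were 84.8% and 59.9%. In that length band the mean difference over the 6 libraries was 5.03 points against D2-only, 46.6 points against D10-only and -36.95 points against all-day regions.

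Whether WT libraries themselves would show higher shares than KO libraries was asked by holding WT replicates out. Each WT letter was left out in turn, and the regions were chosen from the other pair of letters by the same rule. This gave 5050, 6614 and 9816 regions without A, B and C. Each WT library was read only in the regions chosen without its letter. Each KO library was read in all 3 choices, and its value is their mean. At D2 the chosen regions had a peak in 84.8% (KO1) and 64.1% (KO2), against 94.8%, 87.6% and 70.3% in WT A, B and C. KO averaged 74.5% ± 14.6 (SD, n = 2) and WT 84.2% ± 12.6 (SD, n = 3), a difference of -9.74 points (two-sided exact permutation p = 0.5). At D10 the shares were 56.0% and 79.6% in KO1 and KO2, against 87.8%, 85.6% and 62.1% in WT A, B and C. KO averaged 67.8% ± 16.7 (SD, n = 2) and WT 78.5% ± 14.2 (SD, n = 3), a difference of -10.7 points (exact p = 0.5). At D0 they were 5.85% and 13.6% in KO1 and KO2, against 7.07%, 19.5% and 8.22% in WT A, B and C (difference -1.88 points, exact p = 0.8). In the deposited lists these KO means and WT values overlapped on each day, and 2 libraries against 3 allow no p below 0.1. The KO means and WT values rest on unlike choices of regions. Within the choices without A and without B, the WT library was above both KO libraries at D2 and D10. In the choice without C, WT C lay between KO1 (81.5% and 50.2% at D2 and D10) and KO2 (58.7% and 75.2%). At D2 this overlap was absent in a run on equal numbers of peaks per list, which also chose the regions again. With equal numbers of strongest peaks the D2 shares were 76.2% and 61.1% in KO1 and KO2, against 82.8%, 81.2% and 78.3% in WT A, B and C. Both KO libraries were then below all WT libraries, by 12.1 points in the mean (exact permutation p = 0.1, the smallest possible). At D10 they were 54.3% and 76.1% in KO1 and KO2, against 83.1%, 82.3% and 70.8% in WT A, B and C, and still overlapped.

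The deposited lists differed in how much they marked at all. Of all merged regions of the same choices, the D10 lists of KO1 held a peak in 35.5 to 38.3% and those of KO2 in 30.9 to 32.4%, against 26.8%, 24.2% and 16.2% in WT A, B and C. At D2 it was 42.6 to 44.9% and 31.7 to 33.6% in KO1 and KO2, against 50.5%, 44.6% and 34.1% in WT A, B and C. The WT C lists were thus the lowest WT lists on these days by this count too. The part of list length in the held-out shares was not tested, as the run with equal numbers above also chose the regions again.

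**Figure D3:**
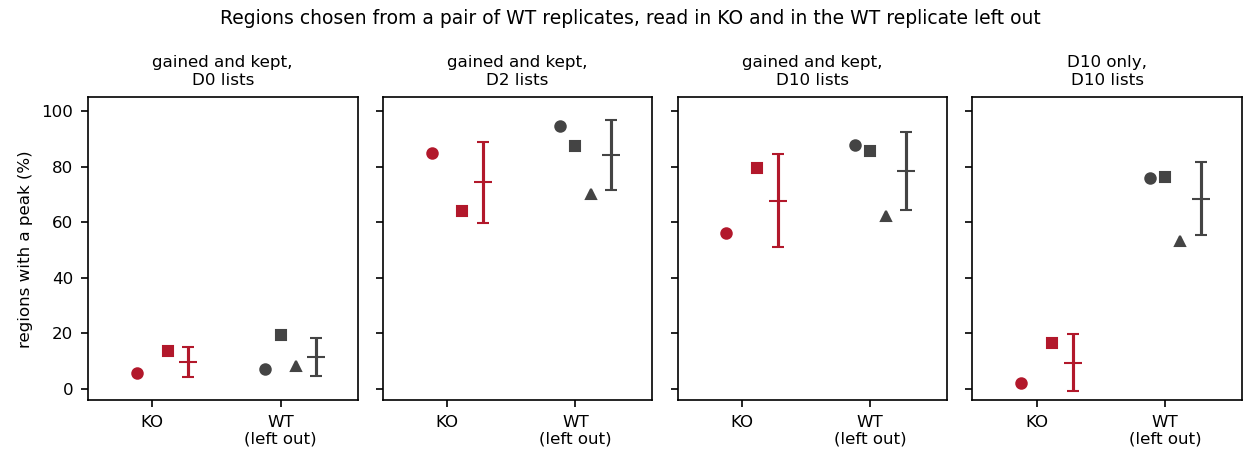
Percentage of regions with a peak (y axis) in KO libraries (red, KO1 circle, KO2 square) and in the WT library left out of the choice (grey, A circle, B square, C triangle), with mean and SD beside the points (n = 2 and n = 3). Each KO point is the mean over the 3 choices of regions, and each WT point rests on its own choice. In these deposited lists KO and WT overlap on each of the 3 days for early-kept regions, while for D10-only regions the KO libraries (2.29% and 16.7%) lie below the 3 WT libraries (53.4 to 76.3%).

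The lists' run names follow several styles, possibly of separate batches, and WT B shares the style of KO1 and WT C that of KO2. Within the first pair, regions chosen without B had a peak in 8.10%, 85.9% and 58.8% in KO1 at D0, D2 and D10, against 19.5%, 87.6% and 85.6% in WT B. Within the second, regions chosen without C had a peak in 11.6%, 58.7% and 75.2% in KO2, against 8.22%, 70.3% and 62.1% in WT C. Beside these, the D10 lists marked 37.3% (KO1) against 24.2% (WT B) and 30.9% (KO2) against 16.2% (WT C) of all merged regions. The higher D10 share of KO2 than of WT C stands beside a higher share of all merged regions. Each pair holds 1 library per arm and day and so allows no test.

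The same held-out reading separated the early-kept from the D10-only regions, a comparison added after the values had been seen. D10-only regions chosen from a pair of WT letters had a D10 peak in 2.29% (KO1) and 16.7% (KO2), against 75.9%, 76.3% and 53.4% in the left-out WT A, B and C. The early-kept share exceeded the D10-only share by 53.8 and 63.0 points in KO1 and KO2, and by 11.9, 9.28 and 8.71 points in WT A, B and C. This excess averaged 58.4 ± 6.52 points in KO (SD, n = 2) and 9.95 ± 1.68 points in WT (SD, n = 3), a difference of 48.4 points. The groups did not overlap, and the two-sided exact permutation p of 0.1 is the smallest that the design allows. With equal numbers of strongest peaks the D10-only shares were 2.12% and 16.4% in KO1 and KO2, against 65.6%, 71.98% and 64.3% in WT A, B and C. The excess was then 52.2 and 59.7 points in KO1 and KO2, against 17.5, 10.3 and 6.52 points in WT A, B and C (exact permutation p = 0.1).

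Covered length was then tested in windows of 10 kb across the autosomes. For each of the 6 KO libraries the bp under its 54997 strongest peaks were summed per window, and the 17996 windows that averaged 500 bp or more were tested with limma on log2(covered bp + 200). Of these, 1809 held an early-kept region. The median log2 change of those windows was 0.63 for D2 against D0, -0.02 for D10 against D2 and 0.58 for D10 against D0, and the median of all tested windows was 0.14, -0.06 and 0.08. With all windows centred on their median, the values for windows with an early-kept region were 0.49, 0.04 and 0.51. The estimate was above 0 in 1344 of the 1809 windows for D2 against D0 (74.3%, against 56.3% of all tested windows) and in 1320 for D10 against D0 (72.97%, against 53.2%). After centring it was above 0 in 1242 and 1277 of them (68.7% and 70.6%). After Benjamini-Hochberg adjustment limma called 0 windows at 0.05 in each contrast, with or without an early-kept region, so 0% of all windows were called. Unadjusted p was under 0.05 in 284, 10 and 275 of the 1809 windows for the 3 contrasts (15.7%, 0.553% and 15.2%), against 8.87%, 0.700% and 8.39% of all tested windows. The same fit also called no window in data made with known changes, so a count of 0 says nothing on whether these windows changed.

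The 10 longest early-kept regions, 2691 to 6043 bp, are given as single examples. Longer early-kept regions had a peak more often in each KO list, so these 10 do not stand for the rest. A peak in both KO D2 lists was found in 61.3% of all early-kept and 22.4% of all merged regions. For both KO D10 lists these shares were 52.2% and 17.0%, and for either KO D0 list 15.1% and 30.1%. All 10 had a peak in both KO D2 lists, 8 in both KO D10 lists and 9 in no KO D0 list. The longest lay on chromosome 2 at 179923847 to 179929889. Its strongest WT peaks had folds of 9.64, 5.03 and 5.21 in D2 A, B and C and 7.90, 6.78 and 6.61 in D10 A, B and C. In KO1 it had no peak at D0, 5.54 at D2 and 4.68 at D10, and in KO2 no peak at D0, 5.02 at D2 and 5.33 at D10. It was marked in all 3 mESC lists too, with folds of 3.46, 4.87 and 3.66 at 0, 12 and 72 hours. The nearest WT D0 peak was 1480 bp away.

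A region on chromosome 11 at 5067916 to 5070606 had a peak in 1 of the KO D10 lists. Its WT folds were 2.84, 4.49 and 4.07 at D2 and 6.86, 9.39 and 8.86 at D10 in A, B and C. In KO1 it had a peak only at D2 (5.28), and in KO2 it had one at D2 (3.75) and at D10 (4.20). mESC had no peak there at 0 hours, 7.99 at 12 hours and 5.03 at 72 hours. Another of the 10 lay on chromosome 8 at 37645317 to 37648027. Its WT folds were 10.8, 13.4 and 10.8 at D2 and 7.11, 6.52 and 5.70 at D10 in A, B and C. In KO1 it had 10.0 at D2 and 9.99 at D10, and in KO2 4.28 at D2 and 5.54 at D10.

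Of the 40 regions marked in all 6 KO lists, the longest lay on chromosome 8 at 73118266 to 73120526. Its folds at D0, D2 and D10 were 5.26, 9.34 and 9.29 in KO1 and 3.77, 7.04 and 4.94 in KO2, and mESC had no peak there. Of the 102 regions with no KO peak on any day, the longest lay on chromosome 11 at 99006172 to 99008025 and was 1854 bp long. Its WT folds were 6.74, 5.19 and 4.81 at D2 and 8.21, 6.92 and 7.29 at D10 in A, B and C, and all 3 mESC lists had a peak there, with folds of 3.71, 2.75 and 3.44. The next longest without a KO peak, on chromosome 4 at 59911104 to 59912816 and on chromosome 17 at 30883531 to 30885234, had no mESC peak either. Of the 57 regions marked in both KO D2 lists and lost from both D10 lists, the longest lay on chromosome 4 at 134938912 to 134940398, with D2 folds of 4.46 in KO1 and 3.54 in KO2.

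Embryonic stem cells marked the early-kept regions more often than they marked merged regions in general, at each time. mESC had a peak in 19.4% of them at 0 hours (95% Wilson interval 18.1 to 20.6%), 36.2% at 12 hours (34.7 to 37.7%) and 18.5% at 72 hours (17.3 to 19.8%). The background over all merged regions was 7.78%, 8.63% and 5.66%. The intervals cover counting of regions only, and with 1 library per time there is no replicate check and no test. D2-only regions had an mESC peak in 10.0%, 5.08% and 0.397% at 0, 12 and 72 hours, and D10-only regions in 5.60%, 22.9% and 33.9%. All-day regions had one in 33.0%, 40.9% and 16.7%. The early-kept share was thus above the D2-only share at each time, above the D10-only share at 0 and 12 hours and below it at 72 hours. At 500 to 1000 bp the early-kept shares were 18.4%, 36.6% and 18.97% and the D10-only shares 6.76%, 26.7% and 39.1%. In that band D2-only regions had an mESC peak in 12.5%, 6.02% and 0.278%, all-day regions in 24.3%, 36.9% and 16.5% and all merged regions in 12.2%, 13.0% and 7.38%.

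**Figure D4:**
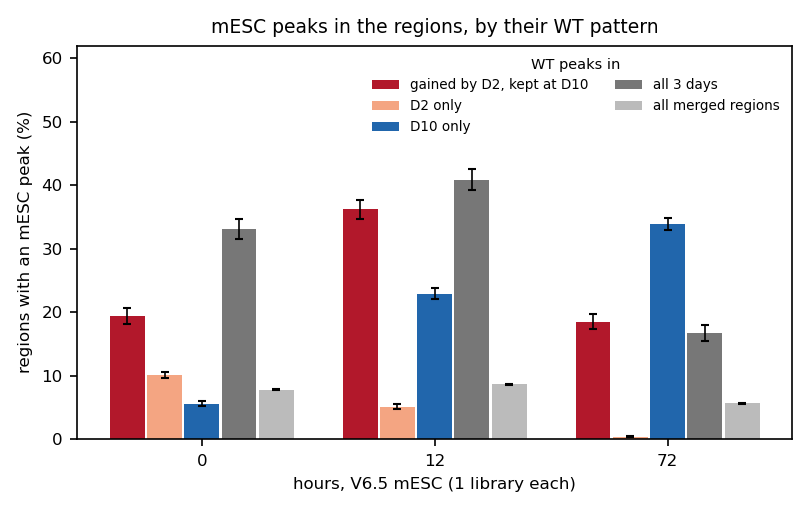
Percentage of regions with an mESC peak (y axis) at 0, 12 and 72 hours (x axis, 1 library each), for regions grouped by their WT peaks, with 95% Wilson intervals that cover counting error only. The early-kept bars stand at 19.4%, 36.2% and 18.5%, and the D2-only bars at 10.0%, 5.08% and 0.397%.

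The share of early-kept regions with an mESC peak at 12 and 72 hours was highest on chromosome 8. There 61.7% of the early-kept regions had a peak at 12 hours and 39.1% at 72 hours, against at most 43.3% and 24.3% on any of the other 18 chromosomes. At 0 hours chromosome 8, with 24.5%, was within the range of the others (14.2 to 26.6%). Without chromosome 8 the shares were 18.99%, 34.4% and 17.0%, against 7.67%, 8.02% and 5.34% of all merged regions left. With chromosome 8 all merged regions stood at 7.78%, 8.63% and 5.66%. Their shares were thus higher on chromosome 8 too, and the higher shares there were not particular to early-kept regions. Of the early-kept regions, 1895 (48.9%, against 82.3% of all merged regions) had no mESC peak, 764 (19.7%, against 3.97%) had one in at least 2 lists and 125 (3.22%, against 0.369%) in all 3. The most frequent pattern with a peak was 12 hours alone, in 662 regions (17.1%, against 4.84%). A peak at 0 hours alone was found in 268 regions (6.91%, against 5.31%) and at 72 hours alone in 290 (7.48%, against 3.62%). Without chromosome 8, 3618 early-kept regions were left. Of these, 1836 (50.7%, against 82.9% of all merged regions left) had no mESC peak. A peak in at least 2 lists was found in 661 (18.3%, against 3.64%) and at 12 hours alone in 603 (16.7%, against 4.55%). The mESC peaks themselves were ordinary for their lists, with median folds of 4.28, 4.03 and 4.32 in the early-kept regions, against 4.26, 4.01 and 4.34 over the whole lists.

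The distance from each early-kept region to the nearest WT D0 peak was also read. Its median over D0 peaks of any replicate was 1569 bp, and 36.5% of the regions were within 1 kb of one. Over all 158564 merged regions with no D0 peak the median was 2651 bp, with 25.7% within 1 kb. D2-only regions had a median of 1588 bp and 37.1% within 1 kb. D10-only regions lay farther off, with a median of 3998 bp and 16.8% within 1 kb. The rule bars a D0 peak inside the region and so sets the low end of these distances in all 3 sets. Beyond 10 kb lay 5.98% of early-kept, 9.39% of D2-only and 23.4% of D10-only regions. Regions within 1 kb of a D0 peak (1414) had KO peaks slightly more often than those farther off (2465), with 72.3% against 64.02% in KO2 D2 and 91.1% against 86.9% in KO1 D2. In mESC the order was the other way round at each time, with 16.5% against 21.0% at 0 hours, 32.7% against 38.2% at 12 hours and 15.0% against 20.5% at 72 hours.

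**Figure D5:**
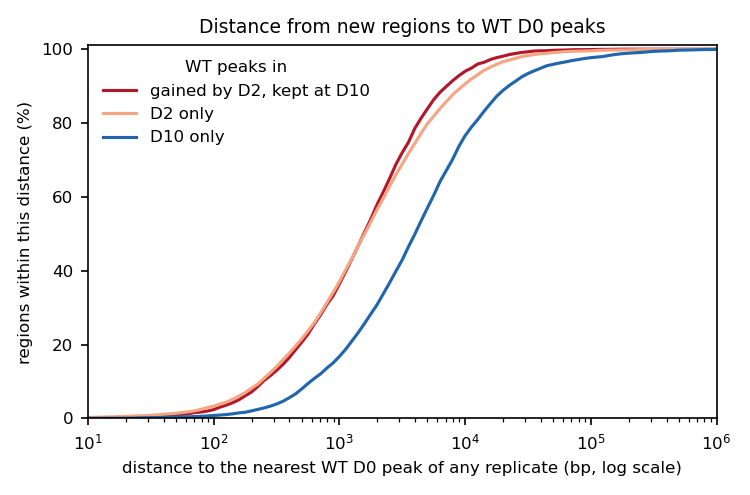
Cumulative percentage of regions (y axis) by distance to the nearest WT D0 peak of any replicate (x axis, bp, log scale), for early-kept, D2-only and D10-only regions. The early-kept and D2-only curves cross their medians at 1569 and 1588 bp, and the D10-only curve crosses its median at 3998 bp.

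The places of the strongest peaks within a region were compared between D2 and D10. For each pair of WT lists the distance between the summits of their strongest peaks was taken in every early-kept region. Its median over the 3879 regions was 63 to 86 bp for the 9 pairs of a D10 and a D2 list, 60 to 68 bp for the 3 pairs of D10 lists and 50 to 56 bp for the 3 pairs of D2 lists. Pairs across days were farther apart by 16.5 bp on average, a difference with an exact permutation p of 0.1, the smallest that 3 libraries against 3 allow. The summits lay over 200 bp apart in 21.3 to 26.0% of the regions across days, 15.0 to 17.4% between D10 lists and 12.1 to 13.7% between D2 lists.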

How the data were processed

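5hmC in sonicated genomic DNA was labelled with an azide-modified glucose, coupled to biotin, captured on streptavidin and amplified over 14 cycles, per the labels' protocols. Bowtie, SAMtools and MACS2 were run by the authors on build mm9, per the submitters' processing notes, with versions not given in the sources. Each deposited list holds, in the MACS2 column layout, the authors' score, fold enrichment as a ratio, −log10 of p and of q, and a summit position. The run names carry a p threshold of 0.0001, and peaks were called per library. These are the authors' values and ranked, filtered or described peaks; values of different lists are given side by side without a test.

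Peaks on chromosomes 1 to 19 were merged and read at 1 bp of overlap (Python 3.11.15). Shares were compared over libraries by two-sided exact permutation, windows by limma 3.58.1 in R 4.3.3 (lmFit, eBayes with trend and robust, Benjamini-Hochberg adjustment) on log2(covered bp + 200). The members and sets were chosen with earlier results of these data known. Overlap, permutation and limma code was tested on simulated data with known answers; there the 6-library limma fit estimated the changes but called none of them. By their titles, KO1 and KO2 were treated as lines followed over the days, which pairs their libraries. The KO1 minus KO2 difference over windows correlated between days by 0.29 to 0.38, and by 0.23 to 0.33 without chromosome 5. Regions named are the longest of each KO or mESC pattern, the windows with the most members, and, for windows past the threshold with groups that do not overlap, the largest changes; the 6-library fit gave none. Wilson intervals are 95% and, like the limit that a count of 0 allows (3 counts), cover counting error only.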

Additional observations from a re-analysis of the deposited data

Results flagged for a closer look

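The KO lines moved in opposite directions between D2 and D10. The share of early-kept regions with a peak differed by -29.4 points in KO1 and by 16.4 points in KO2 (D10 minus D2). The difference between the lines was not tested, since each had 1 library per day. Beside it, the share of all merged regions with a peak was 40.8% at D2 and 33.9% at D10 in KO1, and 30.5% at D2 and 29.8% at D10 in KO2. Depth relative to the input was 1.67 and 1.47 in KO1 at D2 and D10 and 1.23 and 1.16 in KO2. In D2-only regions the changes were -22.4 points in KO1 and 3.33 points in KO2. The part of depth, list length or line in this was not tested.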

How the results depend on the processing

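With equal numbers of strongest peaks the rule gave 1602 regions and with a −log10 q of at least 5 it gave 2309, against 3879; leaving out each WT library gave 4110 to 6119, most without WT D10 C. The KO rise to D2 and to D10 kept its direction under every alternative run (56.8 to 80.3 points and 50.9 to 75.3 points). With the line as replicate block the exact permutation test over the 3 days gave p = 0.333, where no p below 0.167 is possible. In the 6-library window fit the block changed no call. The other tests of shares and summits were not run with it. D10 minus D2 in KO ranged from -18.7 to 5.68 points when each library was left out, with 4.19 without KO1 D2 and 5.68 without KO1 D10. The excess over D10-only regions was 40.1 to 55.3 points, and the deficit against all-day regions -46.0 to -31.5 points; without any 1 KO library neither passed (adjusted exact permutation p = 0.0625 to 0.0938), as 5 libraries allow no p below 0.0625. Without chromosome 5 the held-out D10 difference was -11.6 points (exact p = 0.5). The held-out D0 difference turned to 4.01 points with equal numbers of strongest peaks (exact p = 0.5, range over its alternatives 0.5 to 0.8); the cause was not tested. Fits of all 15 libraries called KO windows with an early-kept region. For D2 against D0 there were 77 rises and 2 falls (3.68% and 0.096%, against 1.49% and 0.305% of all windows tested). For D10 against D0 there were 46 and 2 (2.20% and 0.096%, against 0.845% and 0.121%). In them WT libraries set the spread and which windows were tested (15736, of which 2091 held an early-kept region, against 17996 and 1809). On the windows of the 6-library fit the 15-library fits called 75 and 2, and 43 and 2. Of all windows there they called 1.48% and 0.350%, and 0.73% and 0.144%. With KO line and WT letter as replicate block they called 68 and 2, and 46 and 1. Of all windows these were 1.33% and 0.286%, and 0.845% and 0.159%. Both settings were chosen after seeing the data. WT values chose these regions, so nothing is read from these calls. Without scaling, on all deposited peaks, the median of all windows for D2 against D0 was 0.63 and that of windows with an early-kept region 1.20.

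Alternatives for the mESC shares were chosen after seeing the data. At 0, 12 and 72 hours they were 25.2%, 40.8% and 17.3% with equal numbers of strongest peaks and 16.1%, 21.6% and 14.0% with a −log10 q of at least 5. With summits extended by 150 bp they were 17.9% at 0 and 17.3% at 72 hours. Without chromosome 8 they were 34.4% at 12 and 17.0% at 72 hours. Leaving out each WT library gave 18.1 to 19.9%, 30.5 to 36.4% and 14.1 to 20.2%. The cause was not tested. Absolute depth is unknown and limits every share: a region without a listed peak may still carry 5hmC below the threshold of the list.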

Other observations

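A smaller group of early-kept regions already had a KO peak at D0. Either KO D0 list held one in 585 regions (15.1%, against 30.1% of all merged regions and 15.1% of D2-only regions). Of the 3879, 457 had one in KO2 against 177 in KO1. These 585 had a median length of 728 bp, against 652 bp for the other 3294. They had a KO2 peak in 90.8% at D2 and 94.2% at D10, against 62.8% and 81.5% of the others. A KO1 peak was found in 90.4% of them at D2 and 71.8% at D10, against 88.1% and 56.8%. Of the 585, 78.1% had a KO2 D0 peak and 30.3% a KO1 D0 peak, so libraries of the same lines chose these regions. Their mESC shares at 0, 12 and 72 hours were 18.6%, 32.6% and 18.6%, against 19.5%, 36.8% and 18.5% of the others.

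Marking in mESC at 72 hours and marking in KO at D10 were set side by side over the early-kept regions. Of the 718 regions with an mESC 72 hour peak, 59.3% had a KO1 D10 peak and 85.0% a KO2 D10 peak, against 59.0% and 83.1% of the 3161 without. The median fold in the WT D2 lists was 5.25 with an mESC 72 hour peak and 5.42 without one, and in the WT D10 lists 5.47 with one and 4.88 without. Regions share libraries and are not replicates, so no test was made.

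Longer early-kept regions had a peak more often in each KO and mESC list. In regions of 1 kb or more (713) the shares at D0, D2 and D10 were 7.57%, 94.1% and 71.0% in KO1 and 14.0%, 76.7% and 88.2% in KO2. In regions under 500 bp (887) they were 2.82%, 83.5% and 49.7% in KO1 and 10.3%, 59.4% and 76.0% in KO2. In mESC the shares at 0, 12 and 72 hours were 31.4%, 44.7% and 23.0% at 1 kb or more, against 12.2%, 28.2% and 13.8% under 500 bp.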
